A study of Mus musculus with 16 samples.

Results

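Naive T cells lacking GABPα, an Ets family transcription factor subunit, were compared after 18 h of stimulation, CD8+ against CD4+. Of the 16 arrays of the series, 4 hold these cells, namely 2 arrays labelled CD8_KO_18h and 2 labelled CD4_KO_18h, chosen by these titles alone. The comparison covers all 12394 genes that have a probe set of their own, and where a gene has several, the brightest one on average stands for it. KO cells came from CD4CreGabpaf/f mice and WT cells from Gabpaf/f mice, which carry the loxP-flanked allele without Cre, on a C57BL/6 background. CD4-Cre acts from the CD4+CD8+ thymocyte stage, so Gabpa is lost in both T cell lineages before they separate and not in other cell types. Spleen and lymph node cells were sorted as CD25- CD62Lhi CD44lo. Of each sort, some cells were lysed at 0 h and the others were cultured for 18 h with IL-2 on antibodies against CD3 and CD28. WT cells of both lineages at 18 h (4 arrays) and KO cells of both lineages at 0 h (4 arrays) serve as comparisons. The replicates are labelled biological, with no animal named, so p-values measure the spread between these samples. That spread was pooled for each gene over the replicates of all 16 arrays, not taken from the 4 compared arrays alone. Both sexes were used in the study, and the age and sex of the animals behind these arrays are not given in the sources used here. Xist read 3.55 to 4.34 and the Y-linked Eif2s3y 9.10 to 9.97 over the 16 arrays.

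CD4+ and CD8+ T cells are the main lineages of αβ T cells. CD4 and the CD8α/CD8β pair are coreceptors that bind MHC class II and class I, and bring the kinase Lck to the T cell receptor. CD4+ cells become helper cells that act through secreted cytokines and CD40 ligand, and CD8+ cells become killers that carry granzymes and perforin and secrete interferon γ. ThPOK, encoded by Zbtb7b, maintains the CD4 fate and Runx3 the CD8 fate. GABP is a complex of GABPα, which binds DNA at Ets motifs, and GABPβ, which activates transcription. It is known for its control of mitochondrial and cell growth genes. Differences below are CD8 minus CD4 in log2 units, so that a difference of 1 is a doubling. Errors are SE from the fit, with 2 arrays a group. A gene was called at an adjusted p under 0.05 and a change over 1.5-fold.

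The arrays did not carry the same RNA quality. The 3' probe sets of actin and Gapdh exceeded the 5' ones by 3.76 log2 units on average in CD8 KO 18 h replicate 2, against 0.46 to 0.85 in 13 other arrays, with 1.11 for CD8 KO 0 h replicate 2 and 1.58 for CD4 WT 0 h replicate 1. The replicate difference over genes had an SD of 0.65 in the stimulated KO CD8 cells and 0.28 in the stimulated KO CD4 cells. The 2 CD8 arrays differed by more than 1 in 928 genes. Replicate 2 was the lower one in 547 of these and the higher one in 381. In 79 genes replicate 2 was lower by more than 3 and in 0 it was higher by that much. Results are therefore given with and without CD8 KO 18 h replicate 2, in which case the lone CD8 array is taken to vary as the other groups do. The RNA quality moves with the lineage here, and its part in the results from all arrays was not tested.

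Label checks gave a mixed picture for the deleted gene and a clear one for the lineage. The leading Gabpa probe set read 9.09 to 9.79 on the 8 arrays labelled KO and 8.74 to 9.34 on the 8 labelled WT, and was not lower in KO. A second Gabpa probe set read 7.62 to 9.20 in KO and 6.29 to 7.69 in WT. Whether these probes lie outside the deleted part is not given in the sources used here, so they check nothing about the deletion, and KO below means the cells so labelled. For the leading probe set of Gabpb1, encoding the partner subunit, the KO arrays (8.01 to 8.55) and the WT arrays (6.14 to 7.23) did not overlap. A second Gabpb1 probe set did overlap, at 6.82 to 8.42 in KO and 5.49 to 7.30 in WT. Cd8a read 4.49 and 4.73 in CD4 cells and 11.04 and 10.89 in CD8 cells. Cd8b1 read 6.52 and 5.79 in CD4 cells and 11.59 and 9.29 in CD8 cells, so that its 2 CD8 arrays lay more than 2 apart. Cd4 read 6.34 and 6.38 in CD4 cells and 5.19 and 5.24 in CD8 cells, a narrower gap on this probe set. All 3 coreceptor genes separated the lineages in the labelled direction. Their differences were 6.36 ± 0.66 (adjusted p = 8.24e-05), 4.29 ± 0.65 (0.000892) and -1.15 ± 0.24 (0.00695), and without CD8 replicate 2 they were 6.44, 5.44 and -1.17, all 3 still called. In bulk RNA, fewer cells of a kind and less RNA per cell cannot be told apart.

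In stimulated KO cells, 1130 genes were higher in CD8 cells and 563 were lower (9.12% and 4.54% of the genes tested, 13.7% together). Without CD8 replicate 2, 751 were higher and 424 lower (6.06% and 3.42%, 9.48% together). Both fits called 996 genes in the same direction, 673 higher and 323 lower. Of these, 139 higher and 35 lower genes differed by more than 4-fold in the all-array fit. The 4 arrays bear unequally on the total. The calls numbered 1156 without CD4 replicate 1, 782 without CD4 replicate 2, 2854 without CD8 replicate 1 and 1175 without CD8 replicate 2. There were 685 genes, 502 higher and 183 lower, that kept their call when any of the 4 was left out. The values of the groups did not overlap in 44.8% of all genes. The median difference over all genes was 0.04, with a median SE of 0.20. Over the 12394 probe sets used, the array medians were 5.65 and 5.62 in CD4 cells and 5.85 and 5.97 in CD8 cells. Centring the arrays on these moved the median of all genes from 0.04 to -0.23 and the split to 739 higher and 1342 lower, and quantile normalization gave 937 and 710. Centring on the medians of all deposited probe sets, chosen after seeing the data, left the median at 0.05 and gave 995 and 539. Differences are best read against the median of all genes for that reason. With the replicate number as a block within each lineage 2226 genes were called, and the counts with this block are given below for the lists in which it moved a count by more than 1.5 times.

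**Figure D1:**
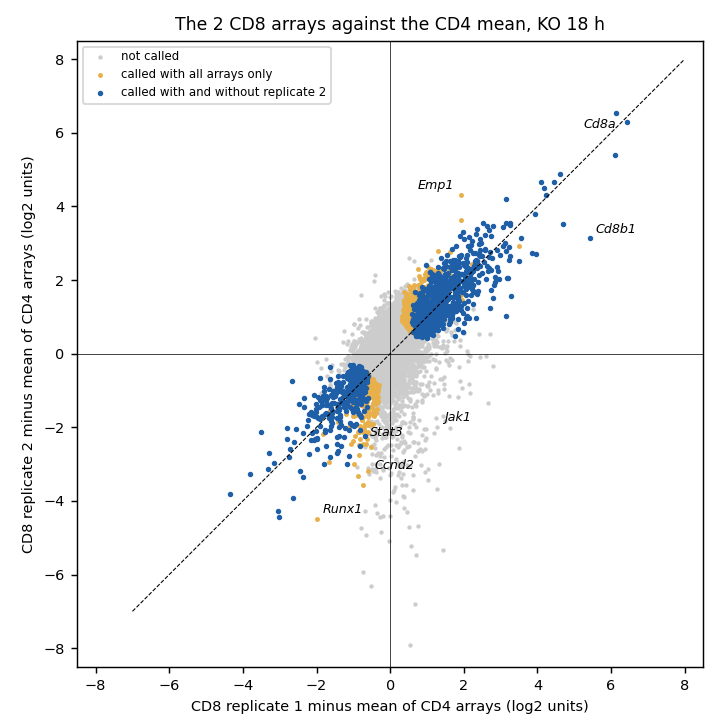
Each point is a gene, with CD8 replicate 1 (horizontal axis) and CD8 replicate 2 (vertical axis) each set against the mean of the 2 CD4 arrays of stimulated KO cells, in log2 units. Blue genes were called with and without CD8 replicate 2 and lie near the dashed line of equality, orange genes were called with all arrays only, and a tail of genes such as Jak1 was low in replicate 2 alone.

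Genes of CD8 lineage identity were higher and those of CD4 identity lower. Of 19 CD8 identity genes measured, 12 were higher and 0 lower, with a median difference of 1.85, and the same numbers were called without CD8 replicate 2 (median 1.56). Beside the coreceptors, Klrd1 (CD94, a receptor for nonclassical MHC class I) read 5.32 and 4.29 in CD4 cells and 10.91 and 10.21 in CD8 cells. Nkg7, a granule membrane protein of killer cells, read 6.29 and 5.31 in CD4 cells and 10.40 and 10.69 in CD8 cells. Klrd1 and Nkg7 differed by 5.75 ± 0.62 and 4.75 ± 0.69. Ctsw (cathepsin W, a protease of CD8 and NK cells) was among the closest in replicates, at 5.75 and 5.73 in CD4 cells and 9.97 and 10.05 in CD8 cells, with a difference of 4.27 ± 0.19 (adjusted p = 3.06e-07). Eomes, a T-box factor of effector and memory CD8 cells, was higher by 3.34 ± 0.61, and its 2 CD4 arrays read 6.66 and 4.79. Itgae (CD103, which binds E-cadherin) was higher by 3.33 ± 0.39. The 2 most abundant members not called were Cst7 (-0.15 ± 0.28) and Crtam (-0.04 ± 0.39). Of 16 CD4 identity genes, 8 were lower and 0 higher, with a median of -1.14 (-0.83 without CD8 replicate 2, with 8 lower again). Tnfsf11 (RANKL, a TNF family ligand) read 11.68 and 11.64 in CD4 cells and 8.35 and 8.52 in CD8 cells and differed by -3.22 ± 0.41. Gata3 differed by -2.08 ± 0.44, Cd5 by -1.52 ± 0.19 and Izumo1r (folate receptor 4) by -1.33 ± 0.20. Gata3 is a zinc finger factor of T cell and helper development, and Cd5 dampens T cell receptor signals. Outside the rule for named genes, and looked up after the values were seen, Zbtb7b was lower by -1.19 ± 0.18 (adjusted p = 0.000882), while Runx3 differed by 0.24 ± 0.19 (0.497).

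The largest difference after Cd8a was that of Plac8, a small cysteine-rich protein of lymphoid and myeloid cells. It read 6.26 and 4.23 in CD4 cells and 11.38 and 11.78 in CD8 cells and differed by 6.34 ± 0.84, with the 2 CD4 arrays about 2 log2 units apart. B3gnt5, a glycosyltransferase that starts lacto-series glycolipids, read 3.61 and 2.95 in CD4 cells and 7.73 and 7.94 in CD8 cells, a difference of 4.55 ± 0.36. A dimmer second B3gnt5 probe set differed by 0.54. Vim (vimentin, an intermediate filament) read 7.39 and 5.22 in CD4 cells and 10.41 and 10.96 in CD8 cells. Lgals3 (galectin-3, a sugar-binding protein) read 6.56 and 5.45 in CD4 cells and 10.17 and 10.49 in CD8 cells. The group means of Vim and Lgals3 differed by 4.38 ± 0.49 and 4.33 ± 0.48, though the CD4 arrays lay more than 1 apart in each. Crip1, a LIM domain protein, differed by 3.66 ± 0.31. Ccr9, the receptor that guides lymphocytes to the gut and thymus, differed by 4.11 ± 0.51. On dimmer Ccr9 probe sets CD8 replicate 2 lay near the CD4 arrays. One read 4.04 and 3.65 in CD4 cells and 6.23 and 3.97 in CD8 cells. Another read 4.29 and 3.60 in CD4 cells and 7.80 and 3.88 in CD8 cells. Racgap1, which acts in cytokinesis, read 3.44 and 3.33 in CD4 cells and 7.33 and 7.18 in CD8 cells, and its difference of 3.87 ± 0.19 had the same small SE as that of Ctsw. Without CD8 replicate 2 these 7 genes differed by 6.14, 4.45, 4.10, 4.17, 3.14, 4.70 and 3.94 in that order. All 7 belong to the 12 highest genes, for which a call in that fit was required.

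**Figure D2:**
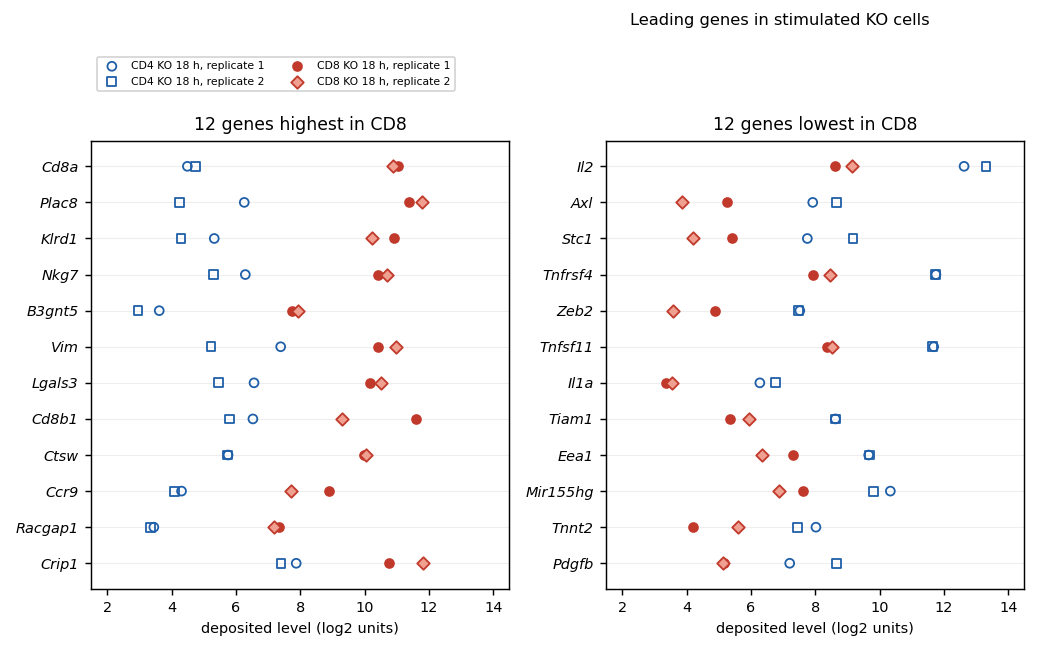
Deposited log2 level (horizontal axis) of the 12 genes highest and the 12 lowest in CD8 cells, with 1 symbol for each of the 4 arrays of stimulated KO cells and no averaging. In every gene both CD8 arrays (red) lie on the same side of both CD4 arrays (blue outlines), as the rule for these genes required.

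The genes lowest in CD8 cells were led by Il2, the T cell growth factor that activated CD4+ cells secrete. It read 12.62 and 13.31 in CD4 cells and 8.62 and 9.15 in CD8 cells, a difference of -4.08 ± 0.71 (adjusted p = 0.00211). Tnfrsf4 (OX40, a costimulatory receptor of activated helper cells) read 11.75 and 11.73 in CD4 cells and 7.94 and 8.46 in CD8 cells, with little spread in either group, and differed by -3.54 ± 0.27 (1.79e-05). Axl, a receptor tyrosine kinase, read 7.92 and 8.65 in CD4 cells and 5.26 and 3.86 in CD8 cells. Stc1 (stanniocalcin-1, a secreted glycoprotein) read 7.75 and 9.17 in CD4 cells and 5.41 and 4.19 in CD8 cells. The group means of Axl and Stc1 differed by -3.73 ± 0.49 and -3.66 ± 0.41, but dimmer second probe sets of these genes showed little or no difference. Zeb2, a zinc finger repressor known in terminal effector CD8 cells, read 7.52 and 7.48 in CD4 cells and 4.87 and 3.58 in CD8 cells. Il1a, an alarm cytokine, read 6.28 and 6.77 in CD4 cells and 3.37 and 3.55 in CD8 cells, the lowest levels of this group in CD8 cells. Zeb2 and Il1a were thus lower by -3.27 ± 0.32 and -3.06 ± 0.20. Further down came Tiam1, a Rac exchange factor (-2.99 ± 0.31), Eea1, an early endosome tether (-2.86 ± 0.33), Tnnt2, the cardiac troponin T (-2.82 ± 0.39), and Pdgfb, a growth factor chain (-2.78 ± 0.39). A dimmer second Tiam1 probe set showed almost no difference (0.005). Without CD8 replicate 2 the 12 lowest genes differed by -4.35 (Il2) to -2.38 (Eea1). A call in that fit was required of these 12 genes.

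Mir155hg, the host transcript of the microRNA miR-155, which activated lymphocytes induce, read 10.33 and 9.82 in CD4 cells and 7.62 and 6.89 in CD8 cells and was lower by -2.82 ± 0.34 (adjusted p = 0.00022). All CD8 values lay below the CD4 values, as the rule for the 12 lowest genes required. The array measured the host transcript and not the mature microRNA. The main mature product in RefSeq lies within the host gene at chr16:84714143-84714165 on the plus strand of GRCm38.p6 and is shown here because its host is among the 12 lowest genes, with the seed (bases 2 to 8) in capitals.
mmu-miR-155-5p: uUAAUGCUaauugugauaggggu

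Cytotoxic genes did not move as a group. Of 20 genes for granule proteins and interferon γ, 4 were higher and 4 lower (3 and 4 without CD8 replicate 2, 1 and 3 without CD4 replicate 2). Gzmb, encoding granzyme B, read 8.36 and 5.69 in CD4 cells and 10.53 and 9.95 in CD8 cells, and its difference of 3.21 ± 0.87 was called with all arrays (adjusted p = 0.0264) and not without CD8 replicate 2 (3.50, 0.0662). Its CD4 arrays lay more than 2 apart. Ctsl (cathepsin L) was higher by 1.45 ± 0.33. The lower ones included Fasl, the death ligand, at 8.33 and 8.10 in CD4 cells and 5.40 and 6.19 in CD8 cells (-2.42 ± 0.29), and Tnf (-1.70 ± 0.20). Ifng, looked up after the values were seen, read 8.52 and 4.05 in CD4 cells and 6.80 and 8.89 in CD8 cells, with groups that overlapped and an adjusted p of 0.473. The T-box factor Tbx21, looked up likewise, showed the same order of arrays, at 7.42 and 4.38 in CD4 cells and 7.46 and 8.04 in CD8 cells (0.19). Ifng and Tbx21 were thus high in CD4 replicate 1 and low in CD4 replicate 2.

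Among helper cytokines and their factors, more members were lower than higher, and most were not called. Of 27 measured, 8 were lower and 1 higher with all arrays, 8 and 1 without CD8 replicate 2, and 4 and 1 without CD4 replicate 2. The median over the list was -0.26. The higher gene was Stat4 (1.70), a transducer of IL-12 signals, named after its value was seen, as are all single exceptions in these lists. Besides Il2, the lower ones included Il3 (-2.27 ± 0.53), Bcl6, the repressor of follicular helper cells (-2.22 ± 0.27), and Pdcd1 (PD-1, an inhibitory receptor, -2.16 ± 0.31). The most abundant members not called were Stat6 (0.13 ± 0.23) and Stat3, which read 8.71 and 8.69 in CD4 cells and 9.24 and 6.85 in CD8 cells, so that 1 CD8 array stood above and the other below the CD4 cells. Among 30 costimulatory and inhibitory receptors, 9 were lower and 3 higher (7 and 3 without CD8 replicate 2, and 12 and 5 without CD8 replicate 1), with a median of -0.61 (-0.22 without CD8 replicate 2). Cd200, whose product quietens myeloid cells, read 11.22 and 11.44 in CD4 cells and 8.77 and 9.28 in CD8 cells (-2.30 ± 0.29). Cd96, an adhesion receptor of CD8 and NK cells, went the other way at 7.09 and 6.42 in CD4 cells and 9.33 and 9.57 in CD8 cells (2.70 ± 0.23). Cd28, the receptor engaged by the stimulus, differed by -0.87 ± 0.37 and was not called, and its CD8 replicate 2 was the lowest of the 4.

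Early response factors, which T cell receptor signals induce within the first hours, were lower in CD8 cells wherever they were called. Of 23 measured, 8 were lower and 0 higher, 7 and 0 without CD8 replicate 2, and 6 to 9 lower without each of the 4 arrays in turn. Dusp6, a phosphatase of ERK, read 11.09 and 11.16 in CD4 cells and 8.41 and 8.54 in CD8 cells, a difference of -2.65 ± 0.28. Egr2 read 10.56 and 10.90 in CD4 cells and 8.74 and 8.43 in CD8 cells and Egr1 read 12.30 and 12.77 in CD4 cells and 11.08 and 9.84 in CD8 cells. Both are zinc finger factors downstream of ERK, and they differed by -2.15 ± 0.16 and -2.07 ± 0.36. Nr4a2, an orphan nuclear receptor, was lower by -1.95 ± 0.42 (adjusted p = 0.00731, and 0.0422 without CD8 replicate 2). Jund (-0.04 ± 0.22) and Myc (-0.47 ± 0.20) were the most abundant members not called. The list's median was -0.47. Of 15 NF-κB factors and inhibitors, 7 were lower and 3 higher with all arrays (6 and 1 without CD8 replicate 2, 5 and 1 without CD4 replicate 1, and 2 and 1 without CD4 replicate 2). Rel (c-Rel, which drives Il2) read 9.56 and 9.80 in CD4 cells and 7.94 and 8.07 in CD8 cells, a difference of -1.68 ± 0.28. Nfkb2 (-1.64 ± 0.39) and Tnfaip3 (-1.51 ± 0.34) were lower, and Bcl3 (1.23 ± 0.31) higher, with all arrays and not without CD8 replicate 2. The T cell receptor complex and its proximal signalling showed 6 higher and 6 lower of 24 (4 and 5 without CD8 replicate 2, and 3 and 4 without CD4 replicate 2). The adaptors Sla2 (2.37 ± 0.22) and Grap2 (2.02 ± 0.21) and the diacylglycerol kinase Dgka (1.40 ± 0.18), which damps the signal, were higher, and Nfatc1 was lower (-1.43 ± 0.23). Ptprc (CD45) read 12.90 to 13.18 in the 4 arrays.

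Genes of the quiescent naive cell were higher where they were called, apart from Slfn2 (-1.67). Of 19 naive cell genes and Foxo1 targets, 7 were higher and 1 lower (7 and 4 with the block, 6 and 1 without CD8 replicate 2). Without CD8 replicate 1 the lower ones numbered 5, and without either CD4 array 0. Il7r, the receptor that keeps naive cells alive, read 7.29 and 8.05 in CD4 cells and 11.53 and 10.40 in CD8 cells, a difference of 3.29 ± 0.55. Klf2, which keeps cells quiescent and circulating, read 8.69 and 8.28 in CD4 cells and 11.20 and 11.24 in CD8 cells (2.74 ± 0.37). Tsc22d3 (2.37 ± 0.42) and Igfbp4 (2.12 ± 0.29) followed. Klf2 and Il7r were above every CD4 value by more than 2. Of 27 interleukin receptors and feedback genes, 9 were higher and 2 lower, and the same numbers were called without CD8 replicate 2 (9 and 5 without CD8 replicate 1, and 10 and 4 with the block). Il18r1 (2.65 ± 0.27), Socs3, a brake on JAK-STAT signals (2.34 ± 0.33), and Ifngr1 (2.23 ± 0.33) were among the higher ones. Jak1 read 10.002 and 10.27 in CD4 cells and 11.39 and 8.39 in CD8 cells. Its difference was -0.24 ± 0.65 with all arrays and 1.26 without CD8 replicate 2, where it was called higher (adjusted p = 0.0192).

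Chemokines and their receptors were mostly higher where called, with 8 higher and 1 lower of 24. The higher ones numbered 8 without CD8 replicate 2 and 3 without CD4 replicate 2, and the 1 lower gene was lost without CD4 replicate 1 or CD8 replicate 1. Xcl1, which draws cross-presenting dendritic cells, read 8.34 and 8.34 in CD4 cells and 11.89 and 11.48 in CD8 cells (3.35 ± 0.44). Ccl5 differed by 2.63 ± 0.66 and Cxcl10, an interferon-induced ligand of CXCR3, by 2.41 ± 0.52. Ccr7, which holds naive cells in lymph nodes, was not called (0.55 ± 0.21). Among 21 integrins and adhesion genes, 6 were higher and 0 lower (5 and 0 without CD8 replicate 2, and 6 and 2 without CD8 replicate 1 or with the block). Selplg, the ligand of P-selectin, and Itgb7, the β chain of gut-homing integrins, differed by 2.22 ± 0.20 and 2.19 ± 0.20.

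Genes that mark memory and effector T cells were higher, with 14 higher and 0 lower of 22 and a median of 1.86. With the mean of all probe sets of a gene in place of the brightest, 12 were higher and 0 lower, and the median was 0.97. Of the 14, 11 were also called without CD8 replicate 2 (median 1.69), and the higher ones numbered 8 without CD4 replicate 2. Without CD8 replicate 1, 14 were higher and 2 lower, and with the block 15 and 2. Vim, Lgals3 and Crip1, described above, led them. S100a6, a calcium-binding protein, read 3.82 and 3.15 in CD4 cells and 5.41 and 7.10 in CD8 cells and lost its call without CD8 replicate 2 (adjusted p = 0.0148 and 0.134). Cd44, on whose low surface level the cells were sorted, read 8.56 and 8.61 in CD4 cells and 8.64 and 6.71 in CD8 cells and was not called, nor was Itgb1 (-0.75 ± 0.24).

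Mitosis genes were higher in CD8 cells as a nearly complete list. Of 26 measured, 21 were higher and 0 lower, with a median of 1.79. The higher ones numbered 21 without CD8 replicate 2, 20 of them the same genes, and 19 to 23 without each of the 4 arrays in turn. Nusap1, a spindle protein, read 5.53 and 5.31 in CD4 cells and 8.003 and 8.64 in CD8 cells. Mki67, the proliferation marker Ki-67, read 6.47 and 6.06 in CD4 cells and 8.77 and 8.92 in CD8 cells, and Aurkb, the kinase of the chromosomal passenger complex, read 3.88 and 3.65 in CD4 cells and 6.17 and 6.45 in CD8 cells. The CD8 values lay above the CD4 values by more than 2 in all 3, and the differences were 2.90 ± 0.31, 2.58 ± 0.34 and 2.54 ± 0.28. Bub1, of the spindle checkpoint, was higher by 2.52 ± 0.37. The most abundant members not called were Mad2l1 (1.07 ± 0.36) and Aurka (0.68 ± 0.26). The list is also apart in the comparison cells, with a median of 0.64 and 3 of 26 higher in WT cells at 18 h and a median of 1.42 and 15 higher in KO cells at 0 h.

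Replication genes depended more on single arrays. Of 25 cyclins, kinases and E2F factors of G1 and S phase, 8 were higher and 0 lower, and 8 were higher without CD8 replicate 2 (11 higher and 3 lower without CD8 replicate 1, 10 and 2 with the block). E2f8, a repressor that acts late in S phase, read 4.04 and 4.13 in CD4 cells and 6.06 and 7.38 in CD8 cells (2.64 ± 0.39), and Ccne1 (cyclin E1) differed by 1.98 ± 0.26. Ccnd2 (cyclin D2) read 12.37 and 12.79 in CD4 cells and 12.01 and 9.31 in CD8 cells and was not called. Of 22 genes of the MCM helicase and origin licensing, 5 were higher with all arrays, 8 with the block (and 1 lower), 11 without CD8 replicate 1, 3 without CD4 replicate 1, and 0 without CD4 replicate 2 or without CD8 replicate 2. Cdc6, which loads the helicase, read 5.93 and 5.57 in CD4 cells and 7.11 and 7.98 in CD8 cells (1.79 ± 0.38, adjusted p = 0.00749, and 0.0712 without CD8 replicate 2). Of 30 polymerase and fork genes, 11 were higher, against 2 without CD8 replicate 2 and 0 without CD4 replicate 2. Pcna, the polymerase clamp, read 12.37 to 12.77 in the 4 arrays and was not called. Of 22 nucleotide and folate genes, 2 were higher and 6 lower with all arrays, 1 and 1 without CD8 replicate 2, 1 and 0 without either CD4 array, and 4 and 5 without CD8 replicate 1. Rrm2, a subunit of ribonucleotide reductase, was higher in both fits (2.23 ± 0.35 and 1.98).

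Promoters of the mitosis genes are shown because the list moved nearly whole. The letters TTTGAA, on either strand, are the core of the cell cycle genes homology region, at which the DREAM and MuvB complexes act. They were searched in the first RefSeq window of each gene, from 250 bases before to 50 after the start. They were found in 16 of 23 mitosis genes that have a window (69.6%), in 14 of the 19 higher ones (73.7%) and in 13.0% of the 9888 tested genes with a window (18.1% of 27025 in the whole table). In the last 100 bases before the start, a shorter window, 6 of the 23 genes have a match, all 6 of them higher, and 17 have none. These bases follow for 4 of the 6, picked because they hold a match, on GRCm38.p6, with the matches in capitals (TTCAAA is the same motif on the other strand).
Cdk1 (chr10:69352913-69353012, minus strand): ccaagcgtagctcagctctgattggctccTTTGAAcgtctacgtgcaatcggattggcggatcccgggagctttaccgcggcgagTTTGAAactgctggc
Top2a (chr11:99024190-99024289, minus strand): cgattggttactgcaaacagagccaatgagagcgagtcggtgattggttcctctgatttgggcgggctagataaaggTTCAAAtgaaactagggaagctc
Cdc20 (chr4:118437344-118437443, minus strand): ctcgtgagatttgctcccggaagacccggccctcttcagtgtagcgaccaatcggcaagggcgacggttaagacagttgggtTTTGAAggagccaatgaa
Ube2c (chr2:164769829-164769928, plus strand): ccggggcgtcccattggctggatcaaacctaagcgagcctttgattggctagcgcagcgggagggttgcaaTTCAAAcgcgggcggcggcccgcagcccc
Cdk1, the kinase that starts mitosis, differed by 1.56 and Top2a, which untangles chromosomes, by 1.83. Cdc20 and Ube2c, which act with the anaphase-promoting complex, differed by 1.67 and 2.16. All were called with and without CD8 replicate 2. A match in these letters is a description of the window and says nothing of binding.

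**Figure D3:**
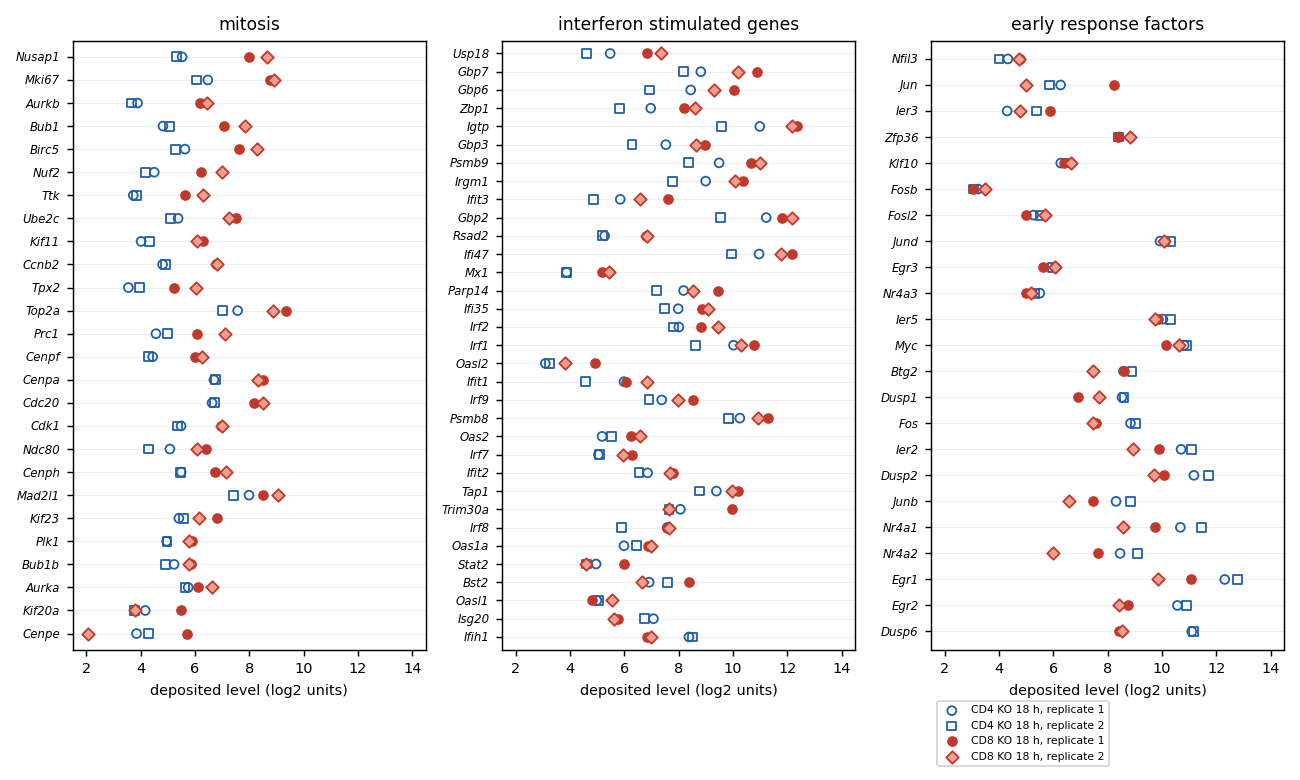
Deposited log2 level (horizontal axis) of every measured member of the mitosis, interferon stimulated and early response lists, with 1 symbol per array of stimulated KO cells and members ordered by their CD8 minus CD4 difference. The CD8 symbols (red) lie to the right for most mitosis genes, the 2 CD4 arrays (blue) lie apart in many interferon stimulated genes, and the CD8 symbols lie to the left in the lower rows of the early response factors.

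Interferon stimulated genes were higher in CD8 cells, but 1 CD4 array set much of the count. Of 33 measured, 15 were higher and 1, Ifih1, a sensor of viral RNA, lower (-1.54), with a median of 1.21. The higher ones numbered 14 without CD8 replicate 2 (12 of them the same genes), 19 without CD4 replicate 1, 12 without CD8 replicate 1 and 2 without CD4 replicate 2. With the block 24 were higher and 2 lower. Gbp7, a guanylate-binding protein that acts against intracellular microbes, read 8.82 and 8.18 in CD4 cells and 10.88 and 10.19 in CD8 cells (2.04 ± 0.41). Gbp6 read 8.45 and 6.93 in CD4 cells and 10.06 and 9.32 in CD8 cells and Zbp1, a sensor of Z-form nucleic acid, read 6.98 and 5.83 in CD4 cells and 8.20 and 8.60 in CD8 cells. In both, CD4 replicate 1 lay more than 1 above CD4 replicate 2, and the differences were 2.0 ± 0.54 and 1.99 ± 0.38. Usp18, which limits interferon signals, lost its call without CD8 replicate 2 (2.05 ± 0.51, adjusted p = 0.0164 and 0.104). Gbp2 (1.60 ± 0.54) and Irf1 (1.21 ± 0.38) were the most abundant members not called. The level of Ifng in the 4 arrays is given above; it too was higher in CD4 replicate 1, and its part in these values was not tested. Of 13 genes of MHC and antigen processing, 8 were higher and 0 lower (6 without CD8 replicate 2, and 3 without CD4 replicate 2). The immunoproteasome subunits Psmb10 and Psmb9 differed by 2.28 ± 0.18 and 1.89 ± 0.34. Cd1d1, which presents lipids, differed by 1.96 ± 0.27. The class I heavy chains H2-K1 (0.56 ± 0.18) and H2-D1 (0.52 ± 0.19) were not called with all arrays.

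Promoters of interferon stimulated genes are shown likewise. A pair of TTTC with any 2 bases between, searched on both strands in the same windows, is the core of the interferon stimulated response element. It was present in 14 of 27 genes of the list with a window (51.9%), in 5 of the 12 higher ones (41.7%) and in 3.17% of all tested genes with a window (3.49% of the whole table). In the 150 bases before the start, 11 of the 27 genes have a match, of which the 4 higher ones, called in both fits, are given with matches in capitals, which run together where matches overlap (GAAA pairs are the motif on the other strand).
Gbp3 (chr3:142559894-142560043, plus strand): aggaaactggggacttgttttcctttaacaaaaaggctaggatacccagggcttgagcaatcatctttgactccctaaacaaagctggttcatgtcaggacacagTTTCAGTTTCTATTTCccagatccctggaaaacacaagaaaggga
Gbp7 (chr3:142530186-142530335, plus strand): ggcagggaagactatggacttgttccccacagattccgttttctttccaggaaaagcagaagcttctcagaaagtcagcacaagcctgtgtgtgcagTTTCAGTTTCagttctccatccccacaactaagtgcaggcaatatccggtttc
Igtp (chr11:58199406-58199555, plus strand): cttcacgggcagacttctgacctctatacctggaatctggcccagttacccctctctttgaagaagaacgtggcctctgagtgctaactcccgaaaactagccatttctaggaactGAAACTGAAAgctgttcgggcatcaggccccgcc
Irgm1 (chr11:48871421-48871570, minus strand): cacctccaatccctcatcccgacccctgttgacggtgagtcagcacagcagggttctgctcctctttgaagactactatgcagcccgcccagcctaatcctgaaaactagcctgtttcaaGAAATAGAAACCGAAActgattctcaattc
Gbp3 differed by 1.91, and the immunity-related GTPases Igtp and Irgm1 by 1.97 and 1.83.

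Lists of growth and metabolic genes held calls in both directions, to be read beside 9.12% of all genes higher and 4.54% lower. Of 28 genes of the Myc network and ribosome biogenesis, 7 were lower and 1 higher (11 and 1 with the block, 10 and 1 without CD8 replicate 2, 4 and 1 without CD4 replicate 1, and 4 and 0 without CD4 replicate 2), with a median of -0.49. Nolc1, a nucleolar phosphoprotein, read 10.50 and 10.57 in CD4 cells and 9.60 and 8.63 in CD8 cells (-1.42 ± 0.27), and Rrs1, a ribosome assembly factor, differed by -0.996 ± 0.16. Polr1b (-1.75 ± 0.38) and Eif4e (-1.19 ± 0.27) were called with all arrays and not without CD8 replicate 2. Of 40 genes that answer ER or integrated stress, 6 were lower and 0 higher (5 and 0 without CD8 replicate 2, and 2 without CD4 replicate 1). Atf5 differed by -1.10 ± 0.19 and Ddit3 (CHOP) by -0.79 ± 0.22, while Hspa5 (BiP) read 12.12 and 12.36 in CD4 cells and 11.65 and 10.53 in CD8 cells and kept no call without CD8 replicate 2. Of 31 proteasome genes, 2 were lower, against 6 with the block, 9 without CD8 replicate 1 and 0 without each of the other 3. Of 11 amino acid transporters, 2 were lower (Slc3a2 and Slc1a5, -0.64 ± 0.19 and -0.62 ± 0.18), and 1, 0 and 1 without CD4 replicate 1, CD4 replicate 2 and CD8 replicate 1. Of 18 glycolysis genes, 3 were lower and 1 higher (3 and 2 with the block, 2 and 0 without CD8 replicate 2, 1 and 0 without CD4 replicate 1, 1 and 1 without CD4 replicate 2 and 1 and 2 without CD8 replicate 1). Pfkfb3, which makes the activator of phosphofructokinase, differed by -1.04 ± 0.16 and Hk2 (hexokinase 2) by -1.48 ± 0.36. Of 27 sterol and fatty acid genes, 5 were higher and 1 lower (9 and 2 with the block, 5 and 0 without CD8 replicate 2, 6 and 0 without CD4 replicate 1, and 9 and 3 without CD8 replicate 1). The lower one was Abca1 (-0.74), a cholesterol exporter. Elovl6, a fatty acid elongase, and Scd2, a desaturase, differed by 1.87 ± 0.20 and 1.77 ± 0.35.

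Mitochondrial genes, among which GABP has known targets, held few calls between the lineages with all arrays. Of 74 mitochondrial ribosome genes, 4 were higher and 2 lower (6 and 4 with the block, 2 and 2 without CD8 replicate 2, 10 and 3 without CD8 replicate 1, 3 and 1 without CD4 replicate 1, 1 and 1 without CD4 replicate 2). Mrpl27 read 6.83 and 6.01 in CD4 cells and 8.10 and 8.68 in CD8 cells (1.97 ± 0.31) and Mrps6 differed by -1.14 ± 0.19. Of 74 respiratory chain and ATP synthase genes, 2 were higher and 0 lower, with 8 under the block, 1 without CD8 replicate 2 or CD4 replicate 2 and 18 without CD8 replicate 1. Cox8a differed by 1.13 ± 0.22 and Atp5h by 0.82 ± 0.19. Of 19 genes of the TCA cycle, Idh1 (1.23 ± 0.27) and Idh2 (0.63 ± 0.19) were higher with all arrays, against 0 without CD8 replicate 2, 1 without either CD4 array and 3 without CD8 replicate 1. Of 42 cytosolic ribosomal protein genes, 0 were called with all arrays, 2 were higher with the block or without CD8 replicate 1 and 1 was lower without CD8 replicate 2, and the most abundant, Rps29, read 14.11 to 14.21. The median differences of these 4 lists were 0.03, 0.29, -0.04 and 0.06, against 0.04 for all genes. Without CD8 replicate 2 they were -0.24, 0.01, -0.14 and 0.03, against -0.07 for all genes. Of 29 p53 targets and apoptosis genes, 5 were higher and 3 lower (3 and 3 without CD8 replicate 2, 2 and 3 without CD4 replicate 2, and 6 and 6 without CD8 replicate 1). Casp8 was higher by 1.62 ± 0.22, and Bcl2l1 (BCL-XL, which keeps cells alive), Gadd45b and Cflar were lower by -1.59, -2.02 and -1.77.

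On their leading probe sets, the GABP subunits themselves were not called between the lineages. Gabpa read 9.70 and 9.78 in CD4 cells and 9.50 and 9.09 in CD8 cells (-0.44 ± 0.20, adjusted p = 0.179) and Gabpb1 read 8.44 and 8.55 in CD4 cells and 8.06 and 8.09 in CD8 cells (-0.42 ± 0.22, 0.261). With the medians of the genes centred, both passed as lower, and with those of all probe sets neither was called. Their second probe sets, not tested on their own, were also lower in CD8 cells. That of Gabpa read 9.02 and 9.20 in CD4 cells and 8.31 and 8.20 in CD8 cells (-0.86). That of Gabpb1 read 8.17 and 8.42 in CD4 cells and 7.58 and 7.96 in CD8 cells (-0.52). Of 17 other Ets factors, Fli1 (1.64 ± 0.30) and Ets1 (1.02 ± 0.20) were higher and Ets2 was lower (-0.95 ± 0.15), and the same numbers were called without CD8 replicate 2 (1 and 1 without CD4 replicate 2). Fli1 read 8.17 and 7.34 in CD4 cells and 9.30 and 9.49 in CD8 cells, with the CD4 arrays farther apart than the CD8 arrays. Over all genes 9.12% were higher and 4.54% lower, and the calls among the 17 Ets factors stand near these shares. The Ets letters CCGGAAG, which GABP can bind, occurred on either strand in 15.02% of the tested genes' windows, in 14.3% of 539 windows of genes higher in CD8 cells in both fits and in 20.7% of 261 windows of genes lower in both. These are counts of letters, with no test. Of 8 regulators of G protein signalling, 3 were higher and 1 lower (1 and 0 without CD8 replicate 2 or without CD4 replicate 2). Rgs19 was called with and without CD8 replicate 2 (0.77 ± 0.16).

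**Figure D4:**
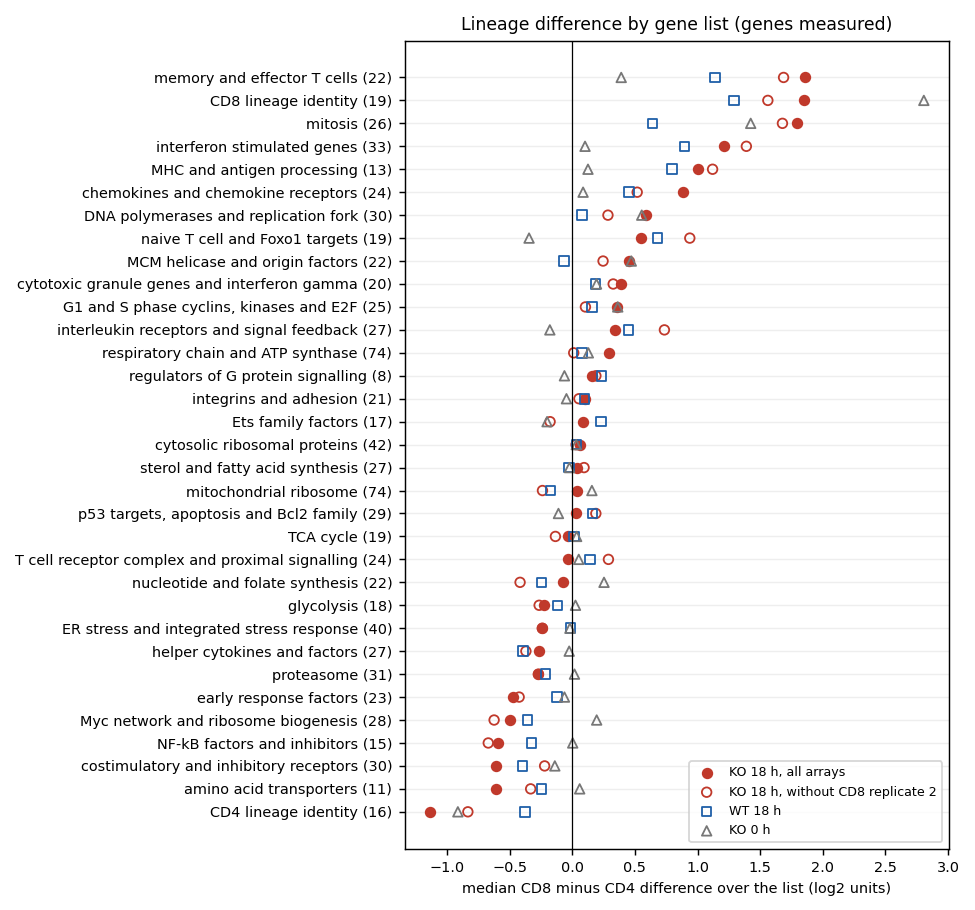
Median CD8 minus CD4 difference over each gene list (horizontal axis, log2 units), with the number of genes measured in brackets. Filled red circles are stimulated KO cells with all arrays, open red circles the same without CD8 replicate 2, blue squares stimulated WT cells and grey triangles resting KO cells. The memory, CD8 identity and mitosis lists lie farthest to the right (1.79 to 1.86 with all arrays) and CD4 identity farthest to the left (-1.14).

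Markers of other cells were mostly low. Of 15 B cell markers, Cd79b and Ighm were higher and 0 lower, with 1 higher without CD8 replicate 2 and 1 without CD4 replicate 2, and the mean level of the list was 4.52 and 4.30 in CD4 cells and 4.25 and 4.90 in CD8 cells. Cd79b read 3.52 and 3.45 in CD4 cells and 5.11 and 6.25 in CD8 cells and Ighm read 9.33 and 8.84 in CD4 cells and 10.60 and 10.85 in CD8 cells, whereas Cd79a, which pairs with Cd79b in B cells, read 3.54 to 4.26 in the 4 arrays. H2-Aa, an MHC class II chain, read 6.21 and 5.50 in CD4 cells and 3.81 and 6.29 in CD8 cells. Of 17 myeloid and dendritic markers, Ctss alone was higher (0.95 ± 0.22), in none of the 17 without CD4 replicate 2, and the mean level was 4.06 to 4.66, with 2 higher under the block. Of 11 NK markers, Nkg7, Eomes and Fcgr3 were higher, the first 2 of which are also on the CD8 identity list, and Fcer1g and Tyrobp were not (-0.13 ± 0.34 and -0.04 ± 0.65). Of 10 regulatory T cell markers, Itgae was higher and Izumo1r and Gpr83 were lower (1 lower without CD8 replicate 2 or CD4 replicate 2). Of 9 thymocyte markers, Ccr9, Cd1d1 and Mns1 were higher, while Dntt read 3.55 to 4.17. Gata1 was higher among 9 erythroid and platelet markers with all arrays (1.09 ± 0.26) and not without CD8 replicate 2 or CD4 replicate 2, and 0 of 3 γδ markers were called. Of the 4 sex-linked genes 0 were called with all arrays and 2 were higher with the block. The part of other cells in the results was not tested.

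The same lineage difference was measured in WT cells stimulated alike. There, 288 genes were higher in CD8 cells and 119 lower (2.32% and 0.96% of genes, 3.28% together, and 227 and 179 with the medians of the genes centred). The WT calls numbered 702 with a block for replicates within each lineage, 229 and 157 without CD4 WT 18 h replicate 1 and 2, and 128 without CD8 WT 18 h replicate 1. Of the 1693 genes called in KO cells, 361 (21.3%) were called in the same direction in WT cells, which is 88.7% of the WT calls. The difference between the 2 differences was itself called in 5 genes (0.0403%), with 847 genes at an unadjusted p under 0.05, 17 called with the block within lineage, 586 without CD8 KO 18 h replicate 1 and 2 to 7 without each other array in turn. Apart from these 5, genes called in KO and not in WT are not shown to differ between genotypes. Zeb2 differed by -3.27 in KO and 0.13 in WT (-3.40 ± 0.45, adjusted p = 0.0246), and the WT arrays read 3.57 and 3.53 in CD4 cells and 3.44 and 3.93 in CD8 cells. Il1a differed by -3.06 and -0.21 (-2.85 ± 0.29, 0.0021), with WT arrays at 2.60 and 2.998 in CD4 cells and 2.56 and 2.61 in CD8 cells. For both, the 2 KO CD4 arrays thus stood above all 6 others. Rbp4, a retinol carrier, read 3.31 and 4.06 in CD4 cells and 6.90 and 6.58 in CD8 cells in KO and differed by 3.05 there and -0.03 in WT (3.08 ± 0.30, 0.0021). Its WT arrays read 2.85 and 2.80 in CD4 cells and 2.77 and 2.82 in CD8 cells, below both KO CD8 arrays by more than 3. Zeb2, Il1a and Rbp4 kept the call without CD8 KO 18 h replicate 2, with adjusted p of 0.00333, 0.00333 and 0.00276. Racgap1 (3.87 in KO, 2.02 in WT) and Ifitm2 (-0.86 and -3.53) lost it with differences of 1.92 and 2.27, against 1.85 and 2.67 with all arrays, at 0.0676 and 0.0743. Racgap1 read 5.67 and 6.01 in CD4 cells and 8.07 and 7.65 in CD8 cells in WT, and Ifitm2, an interferon-induced membrane protein, read 6.71 and 7.02 in CD4 cells and 3.24 and 3.43 in CD8 cells. In both genes the KO CD4 arrays lay more than 2 below the WT CD4 arrays. Il2 (-5.30 in WT), Plac8 (5.86), Klrd1 (5.20) and Tnfrsf4 (-3.41) had WT differences of a size near those in KO. Cd8a read 6.85 in CD4 WT 18 h replicate 1 and 5.11 in replicate 2, above both KO CD4 arrays.

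**Figure D5:**
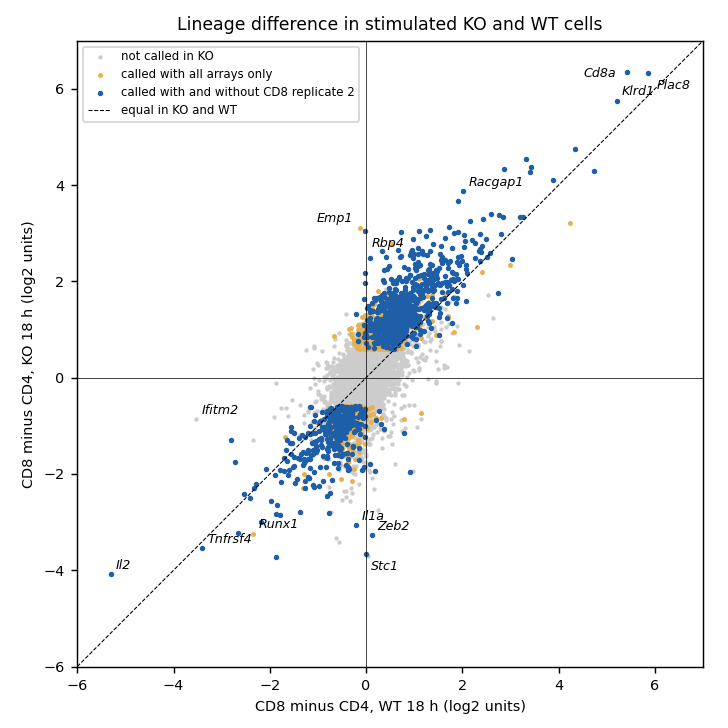
Each point is a gene, with the CD8 minus CD4 difference in stimulated WT cells (horizontal axis) and in stimulated KO cells (vertical axis), in log2 units. Blue genes were called in KO with and without CD8 replicate 2 and orange ones with all arrays only. Cd8a, Klrd1 and Il2 lie in the corners shared by both genotypes, and Zeb2, Il1a, Stc1 and Rbp4 lie near 0 in WT.

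Before stimulation the KO lineages differed in fewer genes, with 197 higher and 89 lower in CD8 cells (1.59% and 0.718%, 2.31% together, with 154 and 128 after such centring, 462 calls under the block within lineage and 116 to 127 without each of these 4 arrays in turn). Of the KO calls at 18 h, 158 (9.33%) were called in the same direction at 0 h, which is 55.2% of the calls at 0 h, and 11 were called in opposite directions. There were 62 higher and 21 lower genes called alike in KO at 18 h, WT at 18 h and KO at 0 h. The lineage difference at 18 h itself differed from that at 0 h in 525 genes (4.24%), in 345 toward CD8 (2.78%) and in 180 toward CD4 (1.45%), or 274 and 306 after such centring. These calls numbered 991 under the block within lineage, 142 without CD4 KO 18 h replicate 2, 1180 without CD8 KO 18 h replicate 1, 205 and 218 without either CD4 array at 0 h and 207 and 302 without either CD8 array at 0 h. Lgals3 differed by -0.06 at 0 h and 4.33 at 18 h (4.39 ± 0.68, adjusted p = 0.00631). Vim (0.46 at 0 h), Il7r (-0.33), Drc1 (-0.42) and Socs3 (-1.08) shifted likewise, by 3.93 ± 0.70, 3.62 ± 0.78, 3.55 ± 0.38 and 3.42 ± 0.47. In the other direction, Mcoln2, a lysosomal cation channel, was 2.84 at 0 h and -1.79 at 18 h (-4.64 ± 0.39, 0.000448), so that the lineage with the higher level changed. Cst7 (cystatin F), a member of the CD8 identity list, differed by 3.30 at 0 h and -0.15 at 18 h. Axl, Stc1, Zeb2 and Pdgfb had differences of 0.03, -0.12, 0.01 and 0.47 at 0 h. The memory list's median went from 0.39 at 0 h to 1.86, the interferon list's from 0.10 to 1.21 and the naive list's from -0.35 to 0.55, while CD8 identity went from 2.81 to 1.85.

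Calls lost without CD8 replicate 2, where the fit also has 1 array fewer, numbered 697. The largest was Runx1, a Runt factor, at 7.63 and 8.26 in CD4 cells and 5.95 and 3.46 in CD8 cells (-3.24 ± 0.79, adjusted p = 0.0156, and -1.99 with 0.146 without that array). Emp1, a membrane protein, read 3.22 and 3.004 in CD4 cells and 5.02 and 7.43 in CD8 cells (3.11 ± 0.66, then 1.91 with 0.0576). Ccl3, a chemokine of effector cells, read 7.62 and 6.23 in CD4 cells and 9.16 and 9.37 in CD8 cells (2.34 ± 0.66, then 2.23 with 0.124), and Gsdme, a pore-forming gasdermin, read 7.65 and 7.15 in CD4 cells and 5.74 and 4.46 in CD8 cells (-2.30 ± 0.51, then -1.66 with 0.0835). In all 4 the CD8 replicate 1 value already lay outside the CD4 values, and in Runx1 and Emp1 replicate 2 lay more than 2 log2 units farther out.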

How the data were processed

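Affymetrix arrays, named M430 2.0 in the methods of the study, measured total RNA of sorted T cells, 2 arrays in each of 8 groups. The deposited values are log2 expression levels per probe set that the authors computed with the affy package in R. RNA went through a second round of amplification. The summary method and versions are not given in the sources used here. Of 22690 probe sets, 64 are controls, 20393 map to 1 gene, 691 to several and 1606 to none, and 20364 were matched, which leaves 12394 genes. The brightest probe set of a gene, by its mean over 16 arrays, stood for it. Array medians over all probe sets were 5.24 to 5.43, and no further scaling was applied. The number of arrays limits the precision.

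All 16 arrays were fitted with 8 group means in limma 3.58.1 (R 4.3.3), with lmFit and eBayes and Benjamini-Hochberg adjustment over all genes. A call needed an adjusted p under 0.05 and a change over 1.5-fold. The script was tested on simulated data. Replicate numbers deviated together within each lineage (r of 0.26 to 0.45 in CD4 and 0.18 to 0.56 in CD8 cells) and oppositely between lineages (-0.60 to -0.12). By the labels' treatment protocol each sort supplied both times, but no label ties a replicate number to a sort or pairs the lineages. The correlations alone bear on pairing, and the block was fitted within lineage as an alternative.

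Named genes were the coreceptor and GABP genes, the 12 highest and 12 lowest genes called with and without CD8 KO 18 h replicate 2 whose arrays did not overlap, per list up to 4 called members by size and 2 others by level, the 6 highest and 6 lowest called in each comparison of differences, and the 6 largest calls lost without that array. The text describes some of them. Members and lists were chosen with earlier results of these data known. Alternatives were leaving out each array, replicate blocks, limma's treat, centring on the medians of the genes or, chosen after seeing the data, of all probe sets, quantile normalization, the brighter genes, the mean of all probe sets, array weights, the 4 arrays alone and leaving out arrays with a 3' to 5' difference over 1. Promoter and microRNA sequences are RefSeq's on GRCm38.p6.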

Additional observations from a re-analysis of the deposited data

Results flagged for a closer look

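Lineage differences that themselves differed between genotypes or times, by the limma test of the difference with Benjamini-Hochberg adjustment, are listed for the leading genes. Between KO and WT at 18 h, the CD8 minus CD4 difference was more negative in KO for Zeb2 (-3.40) and Il1a (-2.85) and more positive for Rbp4 (3.08), Ifitm2 (2.67) and Racgap1 (1.85), of which Ifitm2 and Racgap1 were not called without CD8 KO 18 h replicate 2.

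Between 18 h and 0 h in KO cells, the difference moved toward CD4 for Mcoln2 (-4.64), Axl (-3.76), Stc1 (-3.54), Cst7 (-3.45), Zeb2 (-3.28), Pdgfb (-3.25), Il1a (-2.90), Eea1 (-2.71), Tiam1 (-2.40), Mir155hg (-2.12) and Tnfrsf4 (-1.94). It moved toward CD8 for Lgals3 (4.39), Vim (3.93), Il7r (3.62), Drc1 (3.55), Socs3 (3.42), Gucy1b1 (3.07), Crip1 (2.84), Rbp4 (2.57), B3gnt5 (2.46) and Ctsw (1.99). Of these 21 genes, Mir155hg alone lost its call without CD8 KO 18 h replicate 2. Drc1 encodes a part of the ciliary dynein regulatory complex and Gucy1b1 a subunit of guanylate cyclase.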

How the results depend on the processing

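Under the alternatives run, the 147 named genes called between the stimulated KO lineages kept their direction (121 of them tested, and all 121 kept, among the brighter genes). In many alternatives the direction could not change, because they left each difference as it was and altered only its error or adjustment. These were leaving out an array of another group, the blocks, treat, array weights, the brighter genes and the 4 arrays alone. Some of them were picked by their call without CD8 KO 18 h replicate 2, and list members by size of difference. The counts of named genes therefore do not stand for all calls. Calls were kept in 75 with limma's treat, 85 with the 4 arrays alone, 92 without CD4 KO 18 h replicate 2, 105 without CD8 KO 18 h replicate 2, 109 with array weights and likewise without arrays of a 3' to 5' difference over 1, 125 and 138 without replicate 1 of CD4 and of CD8 KO 18 h, 143 to 145 without each of the other 12 arrays, and 133 to 147 under the other changes of scaling, summary or block. Jak1, not called with all arrays, ranged from -1.74 without CD8 KO 18 h replicate 1 to 1.26 without replicate 2, and was 1.26 without the arrays of high 3' to 5' difference. The 1693 calls became 389 with treat, 941 with array weights and 509 with the 4 arrays alone, 1259 without the arrays of high 3' to 5' difference, 1503 to 1647 with the brighter genes, the mean of probe sets, quantile normalization or centring on all probe sets, and 782 to 2854 with 1 array left out. Centring split them 739 higher to 1342 lower. The array weights were equal for both arrays of every group, at 0.35 for each stimulated KO CD8 array. They thus could not set the array of high 3' to 5' difference apart from its partner. WT calls (407) became 64 with treat and 128 to 573 with 1 array left out, and calls in resting KO cells (286) became 62 and 116 to 410. The 5 calls between KO and WT became 2 with treat, 8 with quantile normalization, 3 with the mean of probe sets or array weights, 0 with the brighter genes in limma (557 at an unadjusted p under 0.05) and 2 to 586 with 1 array left out. The 525 calls between 18 h and 0 h became 38, 275 with array weights, 332 without arrays of high 3' to 5' difference and 142 to 1180 with 1 array left out. The cause of these changes was not tested.

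With the replicate block within lineage the counts in this order were 2226, 702, 462, 17 and 991, and with 1 block over all groups 1622, 379, 256, 2 and 488. The block within lineage removed no call of a named gene. Pairing CD4 replicate 1 with CD8 replicate 2, chosen after seeing the data, gave 2214, 673, 448, 23 and 1018. All listed alternatives were run. Dim probe sets near 3 log2 units limit what can be seen of low transcripts.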
